A study of Rattus norvegicus with 6 samples.

Results

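Mural cells are the pericytes that wrap capillaries and the smooth muscle cells that wrap arterioles, and 10 genes that mark them in the retina are described here. They were taken from the deposited table of gene expression by symbol: Pdgfrb, Notch3, Cspg4, Rgs5, Acta2, Tagln, Myh11, Des, Kcnj8 and Abcc9. The list was chosen by function, with earlier results of these data known. All 10 were found, each as 1 entry, among 34170 genes. The retinas came from 6 male rats of about 100 g of the outbred Sprague-Dawley stock. The 3 diabetic rats had received 60 mg/kg streptozotocin, a toxin of the insulin-producing beta cells, by intraperitoneal injection on 5 days running after a 12 h fast, while citrate buffer alone was given on 5 days to the 3 controls, for which no fast is stated. A rat counted as diabetic when its fasting blood glucose was above 16.7 mmol/L, measured 1 week after the last injection. The titles call the control animals WT, and the labels name no transgene or deletion in either group. Poly-A RNA of whole retina was sequenced, so the values describe the tissue and not sorted cells. The time from injection to tissue collection was not given in the sources used here.

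Pericytes are recruited and kept on retinal capillaries by platelet-derived growth factor B, which endothelial cells secrete and the receptor PDGFRβ on the pericyte binds. Notch3 receives signals from endothelial Jagged and Delta ligands and maintains the smooth muscle state, while the actin and myosin of the contractile apparatus set vessel tone. A potassium channel that opens when ATP is low, built from the subunits Kir6.1 and SUR2, relaxes these cells. The retina is known for its dense pericyte cover, and loss of pericytes is a textbook early change of diabetic retinopathy.

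Values are FPKM, fragments scaled to the length of the gene and the depth of the library, and can be compared between genes. Fragments per library, rebuilt from the table, were between 12417686 and 19115426. Retinal tissue was checked by Glul, the glutamine synthetase gene that marks Müller glia, which was between 485.9 and 758.1 FPKM. Control 3 stood apart in genes of the lens: the summed FPKM of 15 lens genes was 491.2 there and between 16.02 and 59.0 in the other 5 libraries. Each library comes from a separately weighed rat, so p-values measure the spread between animals. The depth of the mural genes was small, since all 10 together had between 481 and 690 fragments per library. Counting intervals below are exact 95% Poisson intervals and cover counting error only, because the reads carry no molecular identifiers.

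Mural transcripts were scarce, and most of them were measured lower in the diabetic retinas. The mean log2 difference was negative in 8 of the 10 genes, beside 48.2% of all genes when no filter was set. It was positive in the 2 channel subunit genes Kcnj8 and Abcc9, at 0.26 and 0.035, and the sign of Abcc9 turned with the scaling. Among the 7 genes with enough signal for the test, the diabetic mean was lowest against control for Acta2, smooth muscle α-actin, at 0.477 times, and next for Rgs5, a regulator of G protein signalling enriched in pericytes, at 0.564 times. The scarcer Cspg4 and Des were at 0.511 and 0.516 times the control mean. In 6 genes (Rgs5, Acta2, Pdgfrb, Myh11, Des and Cspg4) all 3 diabetic libraries were below all 3 control libraries. This was so in 2395 of 23418 genes when no filter was set. Under another scaling, described below, the groups of Pdgfrb and Myh11 overlapped. None of the mural genes passed the test over all genes. In whole tissue, fewer mural cells and less RNA per mural cell cannot be told apart.

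The test was limma on log2(FPKM + 0.5) with Benjamini-Hochberg adjustment over the 16363 genes whose mean reached 0.5 FPKM, and fold changes on this scale understate those of low genes. Of the 10 genes, 7 reached that mean, and 0 of them had an adjusted p under 0.05, as for all genes tested (0%). At an unadjusted p under 0.05 there were 2 of the 7, Acta2 and Rgs5, both lower, beside 10.7% of all tested genes in that direction. With voom, a limma method for counts, on the rebuilt fragments, 0 of the 7 passed and 3 had an unadjusted p under 0.05, all lower. At that threshold 1203 of the 16363 genes were lower with voom. Groups without overlap and lower in diabetic retina were seen in 4 of the 7, beside 13.6% of all tested genes. Of the 3 genes below the filter, Des and Cspg4 had such groups, beside 2.49% of the 7055 genes with a mean above 0 and below 0.5 FPKM. Unlike Des and Cspg4, some of those genes are at 0 in a control library and cannot have such groups, which lowers that share. The median log2 difference of the 7 genes was -0.27, and that of all tested genes was 0.00034. Because the list was chosen with earlier results of these data known, the shares set beside it are a description and not a test.

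The scaling moved part of this. Among all genes at an unadjusted p under 0.05, 1498 were higher and 1757 lower as deposited, and 3009 were higher and 692 lower after rescaling to TPM, which gives every library the same sum and moved the median of all genes to 0.13. With TPM, Rgs5 and Acta2 kept groups without overlap, while Pdgfrb and Myh11 overlapped, so the count was 2 of 7 beside 5.6% of all genes. Long and short genes also differed in their trend between libraries. After removal of the trend with gene length per library, the same 4 genes had groups without overlap, beside 13% of all genes, and the median of the 7 was -0.43.

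**Figure D1:**
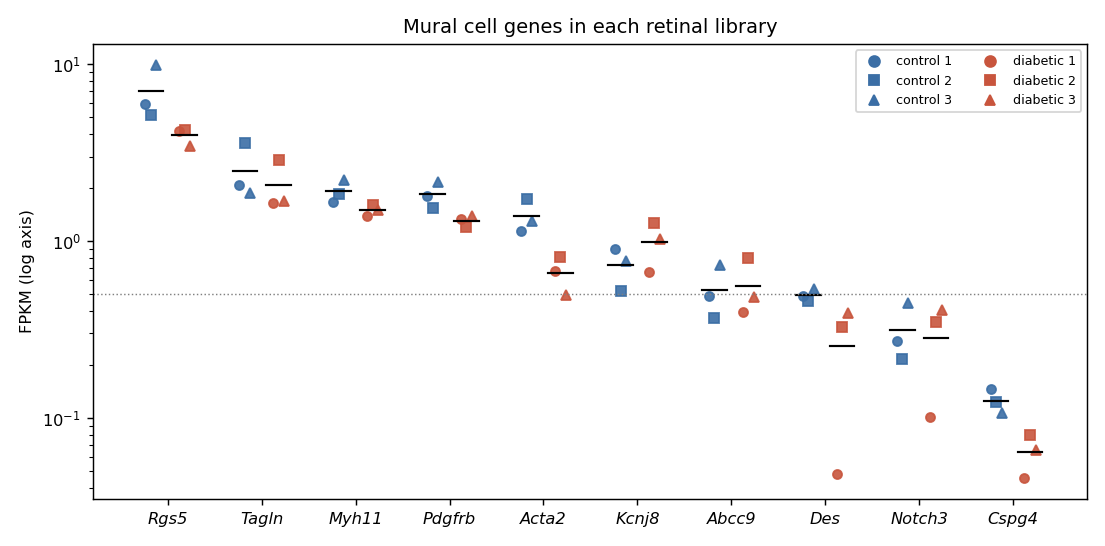
FPKM on a log axis of the 10 mural genes in each library, ordered by control mean; points are libraries, black bars are group means and the dotted line is the mean of 0.5 FPKM needed for testing. For Rgs5 and Acta2 every diabetic library lies below every control library, whereas the values of Kcnj8 and Abcc9 overlap.

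In the control retinas the levels ran from 7.01 ± 2.55 FPKM (SD, n = 3) for Rgs5 down to 0.125 ± 0.0196 FPKM for Cspg4. Rgs5 lay above 40.1% of the tested genes and Acta2 above 9.70% of them. Below Rgs5 came Tagln, Myh11, Pdgfrb and Acta2, with means between 2.50 and 1.38 FPKM, and each of these overlapped its neighbour in the order. Kcnj8, Abcc9 and Des followed with overlapping ranges between 0.734 and 0.493 FPKM on average, and Notch3 and Cspg4 were each apart from the gene above. In the diabetic retinas Kcnj8 stood above Acta2 in mean level, although the ranges of this pair overlapped.

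Among the receptors and signalling regulators, Rgs5 (ENSRNOG00000002730) lies on chromosome 13 from 87966758 to 88003035, plus strand, in the table's coordinates (genome build not given in the sources used here). Control 1, 2 and 3 measured 5.95, 5.16 and 9.92 FPKM, against 4.17, 4.26 and 3.43 FPKM for diabetic 1, 2 and 3. The groups did not overlap, and control 3, the library with the high lens genes, was the highest by far. The log2 difference was -0.71 with a 95% interval from -1.26 to -0.16 (adjusted p = 0.181, limma). Without control 3 it was -0.45, with an interval from -0.82 to -0.071 (adjusted p = 0.149, limma). The values rest on 51 to 104 fragments per library, and the counting intervals of control 2 (3.84 to 6.78 FPKM) and diabetic 2 (3.24 to 5.49 FPKM) overlapped. The gene model is short, at 818 nt, and with the length trend removed the log2 difference was -0.58.

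Pdgfrb (ENSRNOG00000018461, chromosome 18 from 56364620 to 56406381) encodes the receptor through which pericytes answer endothelial PDGF-B. Its level was 1.80, 1.54 and 2.16 FPKM in the control libraries, in order, against 1.34, 1.19 and 1.37 FPKM in the diabetic ones. All diabetic values were below the lowest control value, from 106 to 175 fragments per library. The log2 difference was -0.37 with an interval from -0.79 to 0.053 (adjusted p = 0.302, limma), and the gene did not pass. It was -0.50 with the length trend removed and -0.30 with TPM, where control and diabetic values overlapped.

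Cspg4 (ENSRNOG00000017208, chromosome 8 from 61532465 to 61567510) encodes the NG2 proteoglycan, a surface marker of pericytes and also of oligodendrocyte precursors. The gene was close to the limit of detection, with 20, 12 and 11 fragments (0.145, 0.123 and 0.106 FPKM) in the control libraries and 7, 11 and 10 fragments (0.0455, 0.0804 and 0.0655 FPKM) in the diabetic ones. The groups did not overlap, but the counting intervals of control 3 (0.0530 to 0.190 FPKM) and diabetic 2 (0.0401 to 0.144 FPKM) did. Cspg4 was below the filter and had a log2 difference of -0.15 when no filter was set (adjusted p = 0.428, limma).

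For Notch3 (ENSRNOG00000004346, chromosome 7 from 14138495 to 14189688), the Notch receptor of smooth muscle and pericytes, the control values were 0.273, 0.215 and 0.448 FPKM and the diabetic values 0.101, 0.347 and 0.405 FPKM. The groups overlapped widely, with diabetic 1 the lowest library and control 3 the highest. Notch3 was also below the filter and had a log2 difference of -0.062 without it, with an interval from -0.54 to 0.42 (adjusted p = 0.906, limma).

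**Figure D2:**
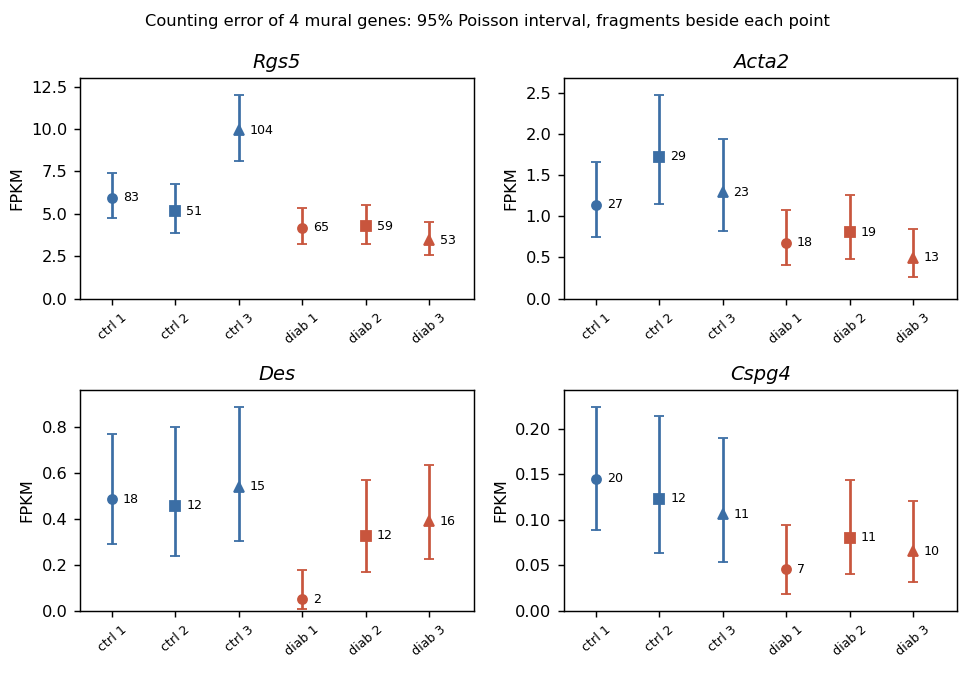
FPKM of Rgs5, Acta2, Des and Cspg4 in each library with exact 95% Poisson intervals, and the rebuilt number of fragments beside each point. The points of the groups separate in all 4 genes, but the intervals of Cspg4 overlap between groups in every pair of libraries, and those of Des in every pair except with diabetic 1, which rests on 2 fragments.

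Among the contractile genes, Acta2 (ENSRNOG00000058039, chromosome 1 from 252537615 to 252550394, minus strand) encodes the actin of smooth muscle thin filaments, carried by arteriolar smooth muscle and some pericytes. The control libraries, in order, measured 1.14, 1.72 and 1.29 FPKM, against 0.680, 0.806 and 0.495 FPKM for the diabetic libraries. Every diabetic library was below every control library. The log2 difference was -0.70 with an interval from -1.22 to -0.17 (adjusted p = 0.176, limma), and it lay between -0.79 and -0.57 when any 1 library was left out. The numbers behind it are small, at 27, 29 and 23 fragments in control and 18, 19 and 13 in diabetic retina.

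The actins are near-identical in sequence, and the value of Acta2 is uncertain because the rule that divided shared reads was not given in the sources used here. Of the other actin genes, named here after their values were seen, Actb was at 268.2 to 354.9 FPKM over the 6 libraries. The skeletal actin gene Acta1 was at 3.22 to 3.51 FPKM in control and 2.96 to 4.53 FPKM in diabetic retina. The cardiac actin gene Actc1 ranged from 2.48 to 5.71 and from 2.56 to 4.24 FPKM, and the enteric smooth muscle gene Actg2 was between 0 and 0.0549 FPKM. The groups overlapped in Actb, Acta1 and Actc1, unlike in Acta2.

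The promoters of Acta2 and Rgs5 are shown because these genes had the largest differences among the 7 tested. RefSeq sequences of the build GRCr8 were matched for 7 of the 10 genes by symbol, and Pdgfrb, Tagln and Myh11 were not matched. The stretches printed are the 250 bases before the annotated start, 5′ to 3′ on the gene's strand, chr1:241172504-241172753 (minus) for Acta2 and chr13:84380827-84381076 (plus) for Rgs5. Capitals mark the CArG box, the site of serum response factor, searched as CC, then 6 bases of which at least 5 are A or T, then GG, and the run TATATA. Both motifs read the same way on either strand, and the matches do not overlap.
Acta2: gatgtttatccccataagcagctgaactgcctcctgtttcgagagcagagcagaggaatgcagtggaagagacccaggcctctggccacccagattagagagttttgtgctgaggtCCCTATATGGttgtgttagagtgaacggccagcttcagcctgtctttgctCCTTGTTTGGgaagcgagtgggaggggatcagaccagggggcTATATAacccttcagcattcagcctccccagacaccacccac
Rgs5: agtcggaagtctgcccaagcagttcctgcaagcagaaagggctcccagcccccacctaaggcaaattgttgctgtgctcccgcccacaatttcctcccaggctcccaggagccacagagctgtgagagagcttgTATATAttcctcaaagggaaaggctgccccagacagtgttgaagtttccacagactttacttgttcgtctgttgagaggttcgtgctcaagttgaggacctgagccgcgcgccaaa
Of the 7 matched promoters, which leave out the smooth muscle genes Tagln and Myh11, 1 had a CArG box, that of Acta2, and it holds 2, which start 134 and 84 bases before the annotated start. Such a box was in 8.08% of 33469 RefSeq promoters of this length. TATATA, which was searched after the sequences had been seen, was in Acta2 and Rgs5 and in 5.45% of all. A match describes letters in this window and does not show that a factor binds there.

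Myh11 (ENSRNOG00000057880, chromosome 10 from 764421 to 859184), the smooth muscle myosin heavy chain, had the best depth of the 10 genes, with 150 to 190 fragments per library. Values ran 1.67, 1.85 and 2.20 FPKM over the control libraries and 1.39, 1.61 and 1.49 FPKM over the diabetic libraries. The diabetic values lay just under the control values, without overlap. The log2 difference was -0.27 with an interval from -0.66 to 0.13 (adjusted p = 0.418, limma). It was -0.18 with TPM, where the groups overlapped, and -0.43 with the length trend removed.

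Tagln (ENSRNOG00000017628, chromosome 8 from 50222896 to 50231357) encodes transgelin, an actin-bundling protein of smooth muscle. Control 1, 2 and 3 had 2.06, 3.56 and 1.87 FPKM and diabetic 1, 2 and 3 had 1.63, 2.87 and 1.69 FPKM. Replicate 2 was the highest library of each group, and the groups overlapped. The log2 difference of -0.21 had an interval from -0.87 to 0.44 (adjusted p = 0.707, limma), and it was 0.026 without control 2. Its gene model overlaps that of Sidt2, at 15.7 FPKM on average, by 1019 nt on the same strand, so fragments of this pair may be shared.

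Des (ENSRNOG00000019810, chromosome 9 from 82556573 to 82564294) encodes desmin, the intermediate filament of muscle and of pericytes. The control libraries had 0.485, 0.456 and 0.538 FPKM and the diabetic ones 0.0483, 0.326 and 0.389 FPKM, from 2 fragments in diabetic 1 to 18 in control 1. Diabetic 1 was far below the rest, and the counting intervals of diabetic 2 and diabetic 3 overlapped that of control 2. Des was below the filter and had a log2 difference of -0.43 without it, with an interval from -0.92 to 0.064 (adjusted p = 0.382, limma).

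The KATP channel genes went the other way in mean level, without passing. Kcnj8 (ENSRNOG00000013463), which encodes the pore subunit Kir6.1, and Abcc9 (ENSRNOG00000036960), which encodes the regulatory subunit SUR2, are neighbours on the minus strand of chromosome 4, from 176782498 to 176789304 and from 176805431 to 176922424, with 16126 nt between them. The values of Kcnj8 were 0.906, 0.524 and 0.772 FPKM for control 1, 2 and 3, beside 0.665, 1.26 and 1.03 FPKM for diabetic 1, 2 and 3. Diabetic 2 and 3 were above all controls, while diabetic 1 lay among them. The log2 difference was 0.26 with an interval from -0.33 to 0.85 (adjusted p = 0.603, limma). It was 0.42 without diabetic 1, 0.13 without control 2 and 0.12 without diabetic 2.

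For Abcc9 the control values of 0.490, 0.368 and 0.727 FPKM and the diabetic values of 0.395, 0.797 and 0.479 FPKM overlapped. Its log2 difference was 0.035 with an interval from -0.60 to 0.67 (adjusted p = 0.955, limma), and its sign turned with the scaling (-0.14 once the length trend was removed, -0.055 after quantile normalization). Kcnj11 and Abcc8 encode Kir6.2 and SUR1, the subunits of the KATP channel of neurons and beta cells. Their log2 differences were -0.16 and 0.19, the groups overlapped, and 0 of 2 passed.

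**Figure D3:**
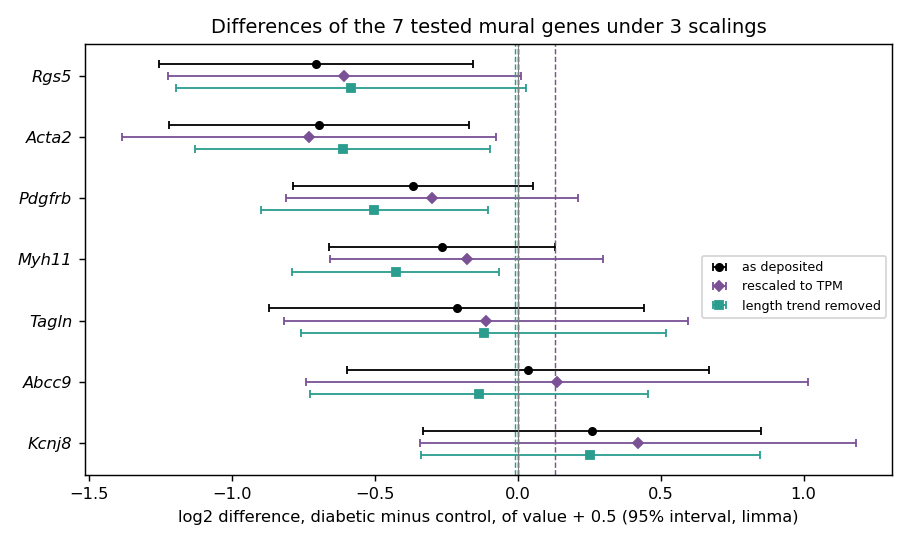
Log2 difference of the 7 tested mural genes, diabetic minus control, with 95% intervals from limma, as deposited, rescaled to TPM and with the trend with gene length removed; dashed lines are the medians of all tested genes under each scaling. Rgs5 and Acta2 lie between -0.58 and -0.73 under these 3 scalings, and the sign of Abcc9 changes.

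The PDGF ligands and the other receptor were set beside Pdgfrb. Of the 5 genes tested, 0 passed, 2 were higher and 1 lower at an unadjusted p under 0.05, beside 9.15% higher and 10.7% lower among all tested genes. Pdgfb, the ligand that endothelium presents to pericytes, measured 1.05, 0.757 and 1.61 FPKM over the control libraries, against 0.481, 0.486 and 0.509 FPKM over the diabetic libraries. All diabetic values were under the lowest control, with a log2 difference of -0.69 and an interval from -1.29 to -0.093 (adjusted p = 0.205, limma). They rest on few fragments, at 39, 20 and 45 in control and 20, 18 and 21 in diabetic retina. Control 3, the library with the high lens genes, was the highest.

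Pdgfd, the other ligand that activates PDGFRβ, was higher, at 1.69, 1.42 and 1.40 FPKM in control and 2.41, 2.60 and 2.96 FPKM in diabetic retina. Its groups did not overlap, as in 12.7% of all tested genes in that direction, and its log2 difference was 0.65 (adjusted p = 0.137, limma). Pdgfra, a receptor of glial precursors and fibroblasts, had a log2 difference of 0.42 and groups without overlap, also in the higher direction (adjusted p = 0.249, limma). Pdgfa and Pdgfc had -0.18 and 0.12, and their groups overlapped. Pdgfb and its receptor gene Pdgfrb were both lower in all diabetic libraries and Pdgfd was higher, with none of the 3 past the threshold.

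**Figure D4:**
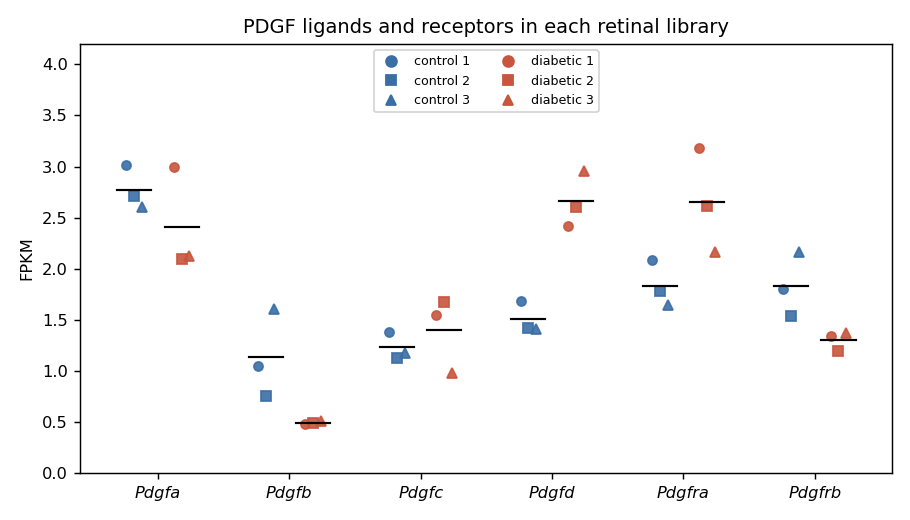
FPKM of the PDGF ligand genes Pdgfa, Pdgfb, Pdgfc and Pdgfd and the receptor genes Pdgfra and Pdgfrb in each library, with black bars at the group means. The diabetic libraries lie below the controls in Pdgfb and Pdgfrb and above them in Pdgfd and Pdgfra.

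A wider list of 34 other pericyte and smooth muscle genes had more members higher than lower in mean. Of 21 tested 0 passed, and their difference from the 10 genes was not tested. Of these 13 were higher and 8 lower, 3 had higher and 1 lower values without overlap, beside 12.7% and 13.6% of all tested genes, and the median log2 difference was 0.11. Those of smallest unadjusted p, with their log2 differences, were Pde5a (0.53), the phosphodiesterase that degrades cyclic GMP in smooth muscle, Cox4i2 (-0.38), a cytochrome oxidase subunit gene of pericytes, and Ebf1 (0.32), a transcription factor gene. The most abundant, the guanylyl cyclase subunit genes Gucy1b1 and Gucy1a1 and the transcription factor gene Tbx2, had log2 differences of 0.037, 0.058 and -0.093, at levels of 30.9 FPKM or more in every library. Many genes of this list are also expressed by other retinal cells.

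The list of 24 other smooth muscle genes, which is not limited to the contractile apparatus, had 18 tested. Of these 0 passed, 9 were higher and 9 lower, with a median log2 difference of 0.090. Without overlap, 4 were higher and 1 lower, beside 12.7% and 13.6% of all tested genes. Rasl12 (log2 difference 0.55) and Vcl (0.33), the gene of the adhesion protein vinculin, were among those of smallest unadjusted p in the higher direction. Sncg, with a log2 difference of -0.52, was at 154.0 to 279.4 FPKM and is a marker of retinal ganglion cells as well. The calponin gene Cnn1, a defining smooth muscle marker, was at 0 to 0.156 FPKM.

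Serum response factor and its partners activate Acta2, Tagln and Myh11 through CArG boxes. In a list of this factor, its partners and other regulators, 8 genes were tested and 0 passed. Of the 8, 2 were lower at an unadjusted p under 0.05, beside 10.7% of all tested genes. Srf itself measured 18.3, 17.7 and 20.1 FPKM over the control libraries, against 13.7, 14.01 and 16.4 FPKM over the diabetic libraries. Its groups did not overlap, with a log2 difference of -0.34 and an interval from -0.58 to -0.099 (adjusted p = 0.163, limma). Csrp2, a LIM protein gene of smooth muscle, had -0.43 with overlapping groups (adjusted p = 0.193, limma), and the coactivator gene Mrtfa had 0.30. Srf is expressed in most cells, so its level is not that of mural cells. Myocd, the smooth muscle coactivator gene, was too low to be tested, at 0.209 to 0.320 FPKM.

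In the Notch list 18 genes were tested and 0 passed, with 12 higher, 6 lower and a median log2 difference of 0.065. The ligand genes Jag1 and Jag2 had -0.023 and 0.081. The fringe gene Rfng, which encodes an enzyme that modifies Notch, had -0.30 and groups without overlap, and Rbpj, the DNA-binding partner of Notch, had 0.23. Hey1, a target gene of Notch, had 0.37. Rbpj and Hey1 were higher without overlap, and over the list 3 genes were higher and 1 lower in this way, beside 12.7% and 13.6% of all tested genes. In the list of TGF-beta and angiopoietin signalling, 11 genes were tested, 0 passed, and the median was 0.089. Its smallest unadjusted p was that of Eng, the endothelial coreceptor endoglin, with a log2 difference of -0.53 and groups without overlap (adjusted p = 0.277, limma).

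Markers of other cells were read in the same libraries. Of 16 endothelial markers 15 were in the table, 1 of them, Cldn5, was at 0 in every library, and 8 were tested, of which 0 passed and 6 were lower. Esam and Slco1a4 were lower without overlap, as were 13.6% of all tested genes, with log2 differences of -0.30 and -0.49. The defining cadherin gene Cdh5 was at 0.105 to 0.367 FPKM, and the summed level of the list, which Kdr dominates, was 60.4 to 76.9 FPKM in control and 60.3 to 78.5 FPKM in diabetic retina. Against the control mean, the median of the 8 was 0.11, -0.29 and 0.21 for the control libraries, in order, beside -0.30, -0.085 and -0.18 for the diabetic libraries. For the 7 mural genes the medians were -0.15, -0.19 and 0.17 over the control libraries, beside -0.34, -0.19 and -0.31 over the diabetic libraries. Control 3 was the highest library in both of these medians. Among the mural genes this held for Rgs5 and Pdgfrb (median 0.36 in control 3). The tested contractile genes were highest in control 2 (0.25, beside -0.062 in control 3) and the channel genes in diabetic 2 (0.44). The part of vessel content in the lower mural values was not tested.

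**Figure D5:**
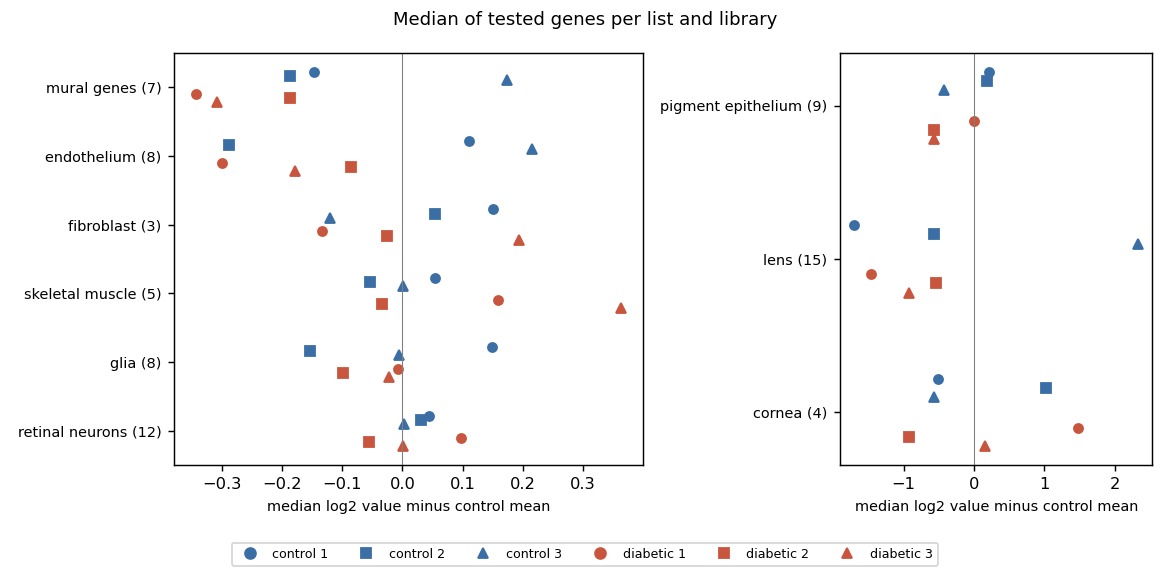
Median log2(FPKM + 0.5) of the tested genes of each marker list in each library, minus the control mean, with the number of genes in brackets; the lists of tissue next to the retina have an axis of their own because their range is wider. Control 3 is highest for mural genes, endothelium and lens.

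Markers of other retinal cells were mixed. Microglia markers summed to 18.9 to 32.4 FPKM in control and 16.1 to 21.1 FPKM in diabetic retina, with 6 of 8 tested genes lower and the complement genes C1qa and C1qb lower without overlap, beside 13.6% of all tested genes. Astrocyte and Müller glia markers summed to 1417 to 1659 and 1039 to 1381 FPKM, but 4 of the 8 tested genes were higher and 4 lower, with a median log2 difference of 0.0037. The most abundant of them, Glul and Apoe, the apolipoprotein E gene, carry most of the sum, and Apoe was lower without overlap. None of these passed, and the part of glial content in the mural values was not tested.

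Markers of tissue next to the retina varied between libraries. Fibroblast and sclera markers summed to 9.06 to 11.5 FPKM in control and 8.74 to 10.6 FPKM in diabetic retina, with 3 of 11 tested (Pdgfra among them), Kera at 0 in all libraries and the collagen gene Col1a1 at 0.578 FPKM or less. Skeletal muscle markers, a sign of eye muscle, summed to 14.7 to 15.9 and 16.02 to 19.3 FPKM, with 5 of 10 tested and 0 passing. The most abundant, Mylpf, Acta1 and Ckm, were at 6.66 to 8.04, 2.96 to 4.53 and 1.67 to 3.41 FPKM. Tnni2 and Myh1 were near 0. Pigment epithelium markers summed to 48.8 to 99.7 and 43.0 to 98.2 FPKM, with 2 of 9 tested genes, Tyrp1 and Pmel, lower without overlap, beside 13.6% of all tested genes. Of 15 lens genes 0 passed. Without control 3, the library richest in them, Rgs5, Pdgfrb and Myh11 had weaker decreases, with log2 differences of -0.45, -0.27 and -0.18. Acta2 and Tagln had stronger decreases without it, at -0.73 and -0.36, and Kcnj8 and Abcc9 had 0.29 and 0.17. The part of these tissues in the mural values was not tested.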

How the data were processed

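Poly-A RNA of 6 rat retinas was made into paired-end libraries, per the labels' protocols, which mention no step that keeps strand. The submitters' processing notes list the aligner HISAT2 2.0.5. Counter, build and annotation: not given in the sources used here. Per the file headers, the deposited values are FPKM, beside gene length and coordinates. FPKM times length was a whole multiple of 1 step in each library (100% of values within 0.05), which gave the fragments.

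Groups came from the titles. Log2(FPKM + 0.5) of genes averaging 0.5 FPKM or more was tested with limma 3.58.1 in R 4.3.3 (a group term alone, eBayes with trend, two-sided, Benjamini-Hochberg, threshold 0.05). For Des, Notch3 and Cspg4 the fit without a filter was used. The length trend was removed per library by lowess. The functions were checked on simulated data. The members and lists were chosen with earlier results of these data known. Named genes are the 10 members and, per list, up to 3 of smallest p and up to 3 of highest mean. Cdh5, Cldn5, Cnn1, Actg2, Myocd, Col1a1, Kera, Tnni2, Myh1, Sidt2 and the actins were chosen after their values were seen. Promoters came from RefSeq (GRCr8). Every pair of libraries differed beyond sampling noise (chi-square over degrees of freedom: 10.7 or more). Alternatives were other pseudocounts, filters, scalings and limma settings, voom, a replicate block and each library left out in turn. The m6A data were not analysed here.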

Additional observations from a re-analysis of the deposited data

How the results depend on the processing

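Over all genes 0 passed, while 2 passed with voom on rebuilt fragments and 0 to 4 after leaving out 1 library. Of the mural genes 0 passed under any alternative run, and the adjusted p of Rgs5 ranged from 0.137 to 0.372 and that of Acta2 from 0.121 to 0.387. The 2 mural genes at an unadjusted p under 0.05 became 1 with TPM (Acta2) and 0 to 2 when 1 library was left out, with 1 without control 2 and 0 without diabetic 3. They became 3, with Pdgfrb added, under quantile normalization, voom and a fit with no trend. With the length trend removed there were also 3, Acta2, Pdgfrb and Myh11, and Rgs5 was at an unadjusted p of 0.0585 (limma). Of all 16363 genes, those lower at this threshold were 692 with TPM, 1425 under quantile normalization and 1203 with voom. They were 1459 with no trend, 1529 with the length trend removed, 1145 without control 2 and 1392 without diabetic 3. The 4 genes that were lower without overlap became 2 with TPM. They were 4 to 5 when 1 library was left out, which cannot lower this count and says nothing of stability. The cause of these moves was not tested. Abcc9, at 0.035, changed sign to -0.055 under quantile normalization, -0.011 with the medians of all libraries set equal and -0.14 with the length trend removed, and it ranged from -0.12 to 0.17 when 1 library was left out. Tagln ranged from -0.43 to 0.026 there, the latter without control 2. With the label's number as a replicate block 2 mural genes were at an unadjusted p under 0.05 and 0 genes passed. Same-numbered libraries did not deviate together (correlations of -0.054, -0.076 and 0.00061). With 3 libraries per group, these correlations cannot show whether the numbers pair the rats. Among all genes at an unadjusted p under 0.05, 2210 were higher and 1203 lower with voom, and 1140 were higher and 2325 lower with medians set equal. Depth limits Cspg4, Des and Acta2 most, at 2 to 29 fragments per library.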

Other observations

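The genes whose levels across the 6 libraries were most like those of the mural genes were ranked by the root-mean-square distance of centred log2 values, among genes that have a symbol and average 1 FPKM or more. For the mean profile of the 7 tested mural genes, Ccdc84 was nearest of 13781 genes, at a distance of 0.029, followed by Ddx51 and Ddx55, which encode RNA helicases, Cpne7 and Slc25a29, a mitochondrial carrier gene, at 0.056 or less. Each of these is at 4.44 FPKM or more in every library. For Rgs5 alone, the member with the widest range, the nearest was Cryab, the gene of the small heat shock protein αB-crystallin of lens and glia, at a distance of 0.089. The values of Cryab were 20.8, 18.8 and 38.1 FPKM over the control libraries, beside 15.2, 17.9 and 12.4 FPKM over the diabetic libraries. Control 3 was highest in both genes. The other 4 nearest to Rgs5 were Hist1h2bl, AC105604.1, AABR07028839.1 and RF00406. With 6 libraries and this many genes, close profiles are found for many patterns, and the distances are given as a description.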
